A study of Mus musculus with 18 samples.

Results

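The genes described here encode the stress sensors of the endoplasmic reticulum (ER) membrane and the transcript on which the IRE1 sensors act. They were Ern1 and Ern2, which encode IRE1α and IRE1β, Xbp1, the mRNA that IRE1 splices, Atf6 and Atf6b, which encode membrane-held transcription factors, and Eif2ak3, which encodes the kinase PERK. They were found by gene symbol, and all 6 were present among the 24047 genes of the count table, 18217 of them with a count in some library. Each of the 6 was counted in all 18 libraries and passed the filter on low counts in all 14 comparisons made.

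The study asked how IRE1β and the gut microbiota act on the mouse colon epithelium, and RNA was sequenced from colon crypt epithelial cells of C57BL/6 mice. There were 6 groups of 3 libraries, formed by 2 genotypes and 3 microbial states. WT mice and mice labelled Ern2-/-, homozygous for a knockout of the gene for IRE1β, were germ free (GF), conventionally raised and specific pathogen free (CONV), or germ free and then colonized for 14 days with cecal homogenate of conventional WT donors (COLONIZED). The groups are called GF-WT, COLONIZED-WT, CONV-WT, GF-Ern2-/-, COLONIZED-Ern2-/- and CONV-Ern2-/-, and both colonized groups received material of WT origin. Ages were not in the labels, and the labels did not say which libraries came from separate animals, so the p-values measure only the spread between these libraries. In bulk RNA of this kind, fewer cells of a type and less RNA per cell cannot be told apart.

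The unfolded protein response matches the folding capacity of the ER to the load of newly made secretory protein. IRE1 removes a short intron from Xbp1 mRNA in the cytosol, which lets the transcription factor XBP1 be made, ATF6 is cut in the Golgi to free its own transcription factor, and PERK phosphorylates eIF2α and so slows translation while ATF4 is made. IRE1α is found in most cell types, whereas IRE1β is known from mucosal epithelia and in the colon from mucus-secreting goblet cells, which carry a heavy load of the mucin MUC2.

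The stretch of Xbp1 that IRE1 cuts is shown because it is the substrate that joins Ern1 and Ern2 to Xbp1. It lies in exon 4 of Xbp1 at chr11:5524270-5524314 on the plus strand of GRCm38, and the capitals mark the 2 words CNGCAGC that lie 26 bases apart, the only pair with that spacing among 3 such words in the transcript. The deposited counts are summed over the gene and hold spliced and unspliced Xbp1 together, so all Xbp1 values below are of total Xbp1 mRNA.
Xbp1 site: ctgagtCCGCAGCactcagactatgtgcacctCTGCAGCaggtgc

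Promoters are shown for Xbp1 and Atf6b, the 2 members called higher in COLONIZED-WT than in GF-WT, as the 250 bases before the RefSeq start on GRCm38.p6. Both strands were searched for the ER stress response element, which is CCAAT followed after 9 bases by CCACG. Its variant, ERSE-II, has ATTGG followed after 1 base by the same second part. Each part was also searched alone, as were the core letters ACGTG of the unfolded protein response element and TGACGT of the cyclic AMP response type. The single parts lie inside the full element, and capitals mark matches. Atf6b at chr17:34646896-34647145 on the plus strand held CCAAT on the minus strand 84 bases before the start and ACGTG on both strands 48 and 47 bases before it, and Xbp1 at chr11:5520391-5520640, also on the plus strand, held none of these letters.
Xbp1 promoter: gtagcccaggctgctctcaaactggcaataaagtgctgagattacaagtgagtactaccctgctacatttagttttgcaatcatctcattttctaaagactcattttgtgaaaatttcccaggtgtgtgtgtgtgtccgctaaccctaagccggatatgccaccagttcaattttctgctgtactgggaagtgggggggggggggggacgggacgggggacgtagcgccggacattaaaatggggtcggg
Atf6b promoter: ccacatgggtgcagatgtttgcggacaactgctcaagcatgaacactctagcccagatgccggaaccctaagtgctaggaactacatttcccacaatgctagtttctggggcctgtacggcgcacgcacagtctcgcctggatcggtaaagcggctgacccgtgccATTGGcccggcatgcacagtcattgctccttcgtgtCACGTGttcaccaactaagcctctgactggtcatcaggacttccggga
Among 32851 promoters of this length, the full element was found in 0.113% and its variant in 0.0304%, whereas CCAAT was found in 33.8%, CCACG in 28.3%, ACGTG in 16.6% and TGACGT in 6.47%. No member promoter with a sequence held the full element or its variant. The Ern1 promoter held CCACG once, 164 bases before the start, and the Eif2ak3 promoter held CCAAT 6 times. A match of letters is a description of the window, and Ern2 and Atf6 had no entry in the table.

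Library totals ran from 5865619 to 23154481 counts, and 3 CONV libraries, called shallow below, had under 10000000, namely CONV-WT replicate 3 with 8198204 and CONV-Ern2-/- replicates 2 and 3 with 7084267 and 5865619. CONV-WT replicate 3 stood apart from its group, with 110297 summed normalized counts of 15 goblet cell markers against 671361 and 590371 in replicates 1 and 2. All 8 epithelial markers were detected in every group, with sums of 154020 to 229130, while the 8 matched plasma and B cell markers summed to 3.18 to 24.7, with Tnfrsf17 at 0 in all libraries. The 11 matched markers of other immune cells summed to 415 to 2766, the 14 stromal markers to 251 to 663 and the 11 enteroendocrine and tuft cell markers to 1984 to 10773. Of 16 matched pancreatic acinar markers, 9 had a count, summing to 854 to 7099, with the defining markers Cpa1, Cela3b, Prss1 and Pnlip at 0. Libraries with Y-linked counts and almost no Xist numbered 0 of 3 for GF-WT, 2 for COLONIZED-WT, 1 for CONV-WT, 2 in GF-Ern2-/-, 2 in COLONIZED-Ern2-/- and 3 in CONV-Ern2-/-, so sex differed between the groups.

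Ern2 itself, the knocked-out gene, was counted in every library. Counts were scaled by size factors over the 18 libraries and are called normalized counts below. Among WT libraries Ern2 stood at 2573, 1909 and 2439 under GF, at 2695, 2412 and 2331 under COLONIZED and at 3100, 3100 and 2089 under CONV. The libraries labelled Ern2-/- had 2877, 386 and 3336 under GF, 2567, 1325 and 1885 under COLONIZED and 998, 1622 and 1487 under CONV. Thus 3 of the 9 libraries labelled Ern2-/- were above the lowest WT library, namely COLONIZED-Ern2-/- replicate 1 and, under GF, replicates 1 and 3, and GF-Ern2-/- replicate 2 was the lowest of all 18. The exons that the allele lacks were not given in the sources used here, and a count over the whole gene cannot show whether the remaining transcript is altered, so the Ern2 count neither checks nor replaces the genotype labels. In the fits without those 3 libraries, of which those with GF-Ern2-/- kept a single library of that group, none of the other 5 members was called in any comparison of 2 groups that had held them or model over genotypes or states, with adjusted p from 0.0816 to 0.994. Calls over all genes without those libraries were 656 of 12479 in Ern2-/- against WT under COLONIZED and 414 of 12570 in CONV-Ern2-/- against COLONIZED-Ern2-/-. In the models over genotypes or states they were 937 of 14589 for genotype, 2141 of 14933 for COLONIZED against GF and 2405 of 14933 for CONV against GF. The test of a difference between genotypes in the microbial response was not refitted without those libraries.

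**Figure D1:**
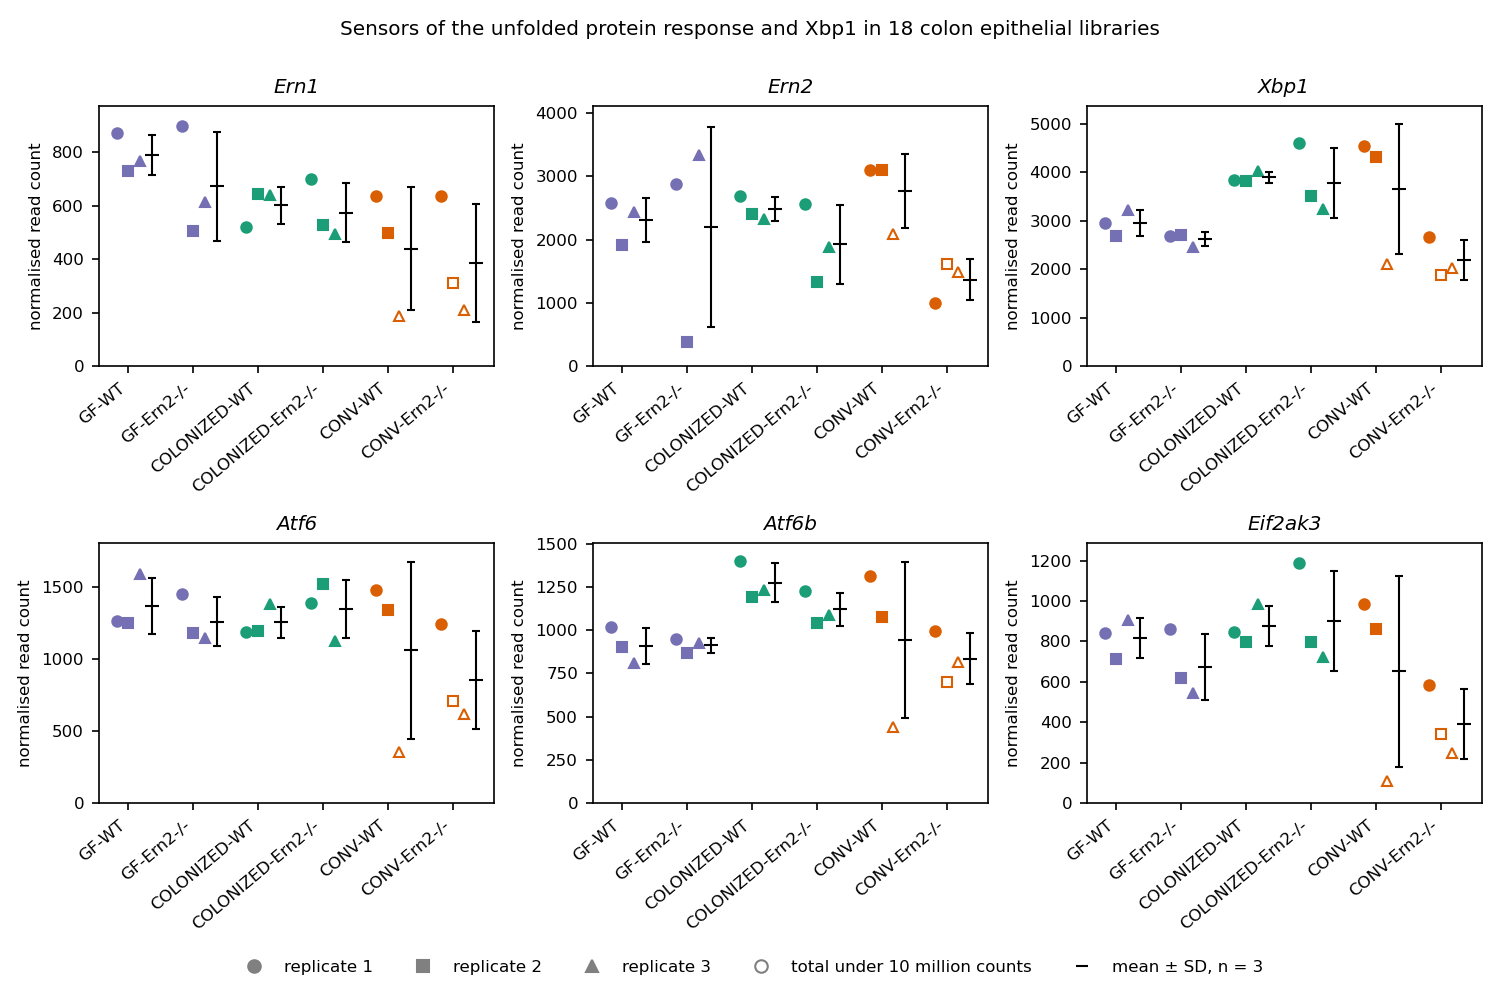
Normalized counts of the 6 genes (vertical axes, 1 panel per gene) in the 6 groups, with circles, squares and triangles for replicates 1, 2 and 3, open symbols for shallow libraries and black marks for the mean ± SD (n = 3). Ern2 in GF-Ern2-/- runs from 386 to 3336, and for all 6 genes CONV-WT replicate 3 is the lowest library of its group.

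Per kilobase of exon, the mean over the 18 libraries was 980 normalized counts for Xbp1, 733 for Ern2, 362 for Atf6b, 129 for Atf6, 119 for Eif2ak3 and 70.7 for Ern1. Xbp1 and Ern2 were thus the members most abundant per length, and Ern1 the least. Across single libraries the highest value was 10.6 times the lowest for Eif2ak3, 8.64 times for Ern2, 4.79 times for Ern1, 4.46 times for Atf6, 3.17 times for Atf6b and 2.45 times for Xbp1. When the 6 groups were ordered by their mean, every pair of neighbours overlapped in range for every one of the 6 genes.

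Members were called at an adjusted p under 0.01 in DESeq2's Wald test, the threshold of the study. In COLONIZED-WT against GF-WT, 2 of the 6 were called, Xbp1 and Atf6b, both higher, where 18.3% of all tested genes were called in either direction and 9.35% were higher. In CONV-Ern2-/- against COLONIZED-Ern2-/-, 2 were called, Xbp1 and Eif2ak3, both lower, where 8.59% of genes were called and 3.73% were lower. The other 7 comparisons of 2 groups called none of the 6.

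Among those 7 comparisons, members with an unadjusted p under 0.05 in DESeq2 numbered 2 in Ern2-/- against WT under CONV, 1 in COLONIZED against GF in Ern2-/-, 1 in CONV against GF in Ern2-/- and 0 in the others. Of all genes with a p, 13.6%, 20.4% and 15.7% were under 0.05 in those 3 comparisons. edgeR's quasi-likelihood test called none of the 6 in any of the 9 comparisons of 2 groups, with unadjusted p under 0.05 for 4 in CONV against COLONIZED in Ern2-/-, 3 in COLONIZED against GF in WT, 1 in each of COLONIZED and CONV against GF in Ern2-/-, 1 in Ern2-/- against WT under CONV and 0 in the others. At the same level edgeR had 31.4%, 41.8%, 26.2%, 19.8% and 15.4% of all genes in these 5 comparisons. The shares of all genes that DESeq2 called at an adjusted p under 0.01 in the 7 comparisons with no member called were 3.03% for Ern2-/- against WT under CONV, 0.035% under GF and 1.37% under COLONIZED, 11% for CONV against GF in WT and 4.34% in Ern2-/-, 7.17% for COLONIZED against GF in Ern2-/-, and 0.119% for CONV against COLONIZED in WT. edgeR called 0% of all genes in Ern2-/- against WT under CONV and under GF and in CONV against COLONIZED in WT, 0.00786% in Ern2-/- against WT under COLONIZED, 0.175% and 0.0325% in CONV against GF in WT and Ern2-/-, 4.94% and 0.216% in COLONIZED against GF in WT and Ern2-/-, and 0.282% in CONV against COLONIZED in Ern2-/-. A test of whether the microbial response differed between genotypes called none of the 6 for CONV (background 0.177%) or for COLONIZED (background 0.028%), and none had an unadjusted p under 0.05 by DESeq2 or edgeR, which called 0% of all genes in both. In models over both genotypes or all 3 states, none of the 6 was called by either tool, where DESeq2 called 17.2% of all genes and edgeR 13.4% for COLONIZED against GF, 19% and 15.9% for CONV against GF, and 1.63% and 0.319% for Ern2-/- against WT. Members with an unadjusted p under 0.05 by each tool numbered 2, 1 and 1 in this order, at which level DESeq2 had 30.8%, 33.2% and 15.1% of all genes and edgeR 39%, 41.7% and 17.5%.

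**Figure D2:**
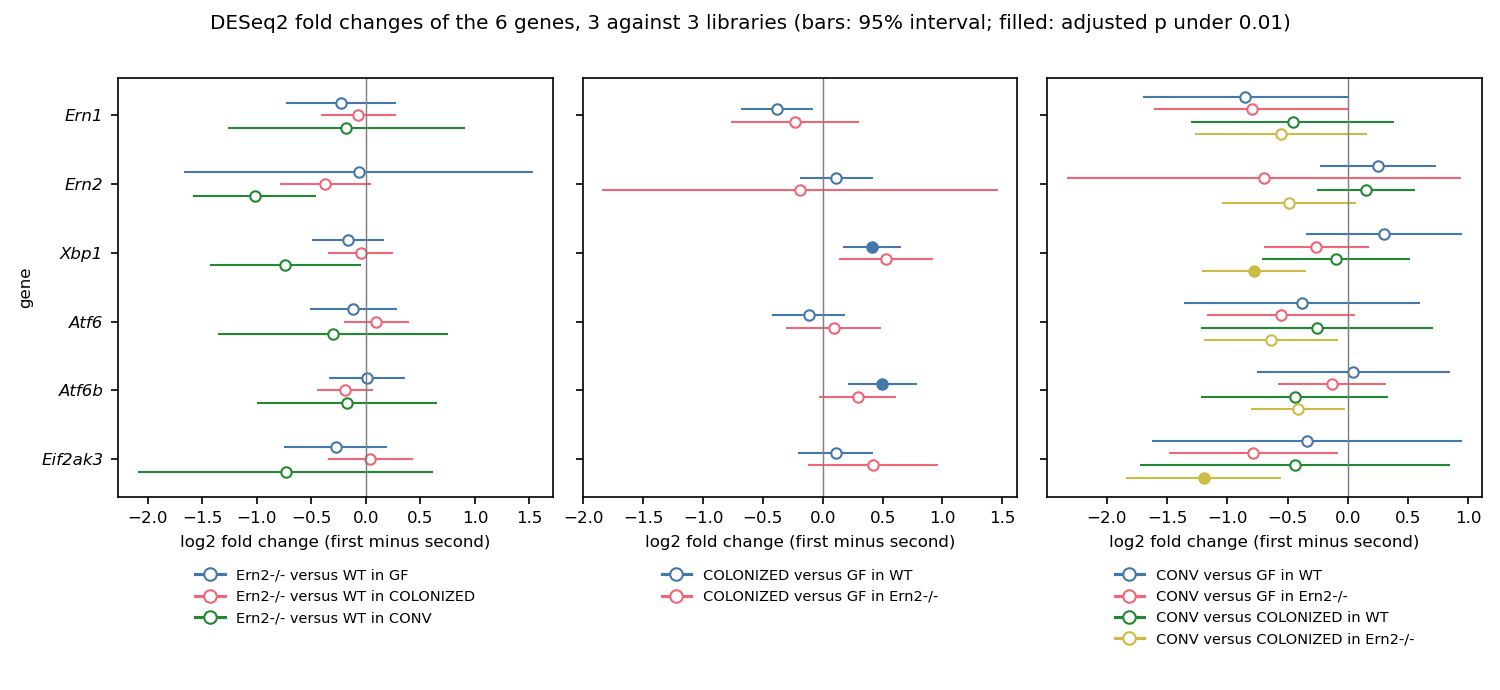
Log2 fold change of each gene (horizontal axes) in the comparisons of 2 groups, with bars for the 95% interval and filled points for an adjusted p under 0.01. The 4 filled points are Xbp1 and Atf6b in COLONIZED against GF in WT and Xbp1 and Eif2ak3 in CONV against COLONIZED in Ern2-/-.

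Ern1, at chr11:106394650-106487852 on the minus strand, encodes IRE1α, the sensor kinase and endoribonuclease found in most tissues. WT libraries had 874, 729 and 769 normalized counts of it under GF, 523, 643 and 639 under COLONIZED and 637, 497 and 188 under CONV. In the Ern2-/- groups they were 900, 507 and 613 under GF, 700, 528 and 495 under COLONIZED and 636, 313 and 210 under CONV. The 3 GF-WT libraries were above all COLONIZED-WT and all CONV-WT libraries, whereas the Ern2-/- groups overlapped with one another. Groups with no overlap were common, being seen in 50.3% of 10015 genes with a mean of at least 100 for COLONIZED-WT against GF-WT and in 38.2% for CONV-WT against GF-WT. In Ern2-/- against WT, no member had groups without overlap under GF or COLONIZED, where 5.87% and 32.2% of genes did, and none did in CONV against GF in Ern2-/- (23.6%) or in CONV against COLONIZED in WT (17.1%).

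The Ern1 log2 fold change was -0.39 (SE 0.15, DESeq2 adjusted p = 0.0425) in COLONIZED-WT against GF-WT and -0.85 (SE 0.43, adjusted p = 0.165) in CONV-WT against GF-WT, neither past the threshold. The value for CONV-Ern2-/- against GF-Ern2-/- was -0.80 (SE 0.41, adjusted p = 0.266). With both genotypes in a single model, CONV against GF gave -0.82 (SE 0.27) with an adjusted p of 0.0114 by DESeq2 and 0.0272 by edgeR, where 19% of all genes were called. That adjusted p ran from 0.000498 to 0.957 over 9 other settings, 5 of which passed the threshold, and with library total as a covariate the fold change was 0.03. It was -0.32 (adjusted p = 0.227) without the 3 shallow libraries and -0.71 (adjusted p = 0.0816) without the 3 whose Ern2 count went against the label.

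Between genotypes the Ern1 level showed no called difference, and the intervals bound its size. The log2 fold change of Ern2-/- against WT was -0.23 (95% interval -0.73 to 0.28) under GF, -0.07 (-0.41 to 0.27) under COLONIZED and -0.18 (-1.26 to 0.91) under CONV. The CONV interval was the widest of the 3, and the pooled estimate over the 3 states was -0.16 (-0.59 to 0.27). Without the 3 libraries whose Ern2 count went against the label, the pooled estimate was -0.30 (adjusted p = 0.501), and that under COLONIZED was -0.23 (adjusted p = 0.401). Under GF, where 1 Ern2-/- library was left and the spread came from the other groups, the estimate was -0.64.

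Ern2, at chr7:122169893-122186207 on the minus strand, encodes IRE1β, the mucosal paralog of IRE1α. Its level in WT showed no called difference between the 3 states, at 2307 ± 351 normalized counts in GF-WT, 2479 ± 191 in COLONIZED-WT and 2763 ± 584 in CONV-WT (mean ± SD, n = 3). CONV-WT replicates 1 and 2, at 3100 each, lay above the highest GF-WT library, at 2573, and replicate 3 stood at 2089. The log2 fold change was 0.11 (95% interval -0.19 to 0.42) for COLONIZED-WT and 0.25 (-0.23 to 0.73) for CONV-WT, each against GF-WT. In libraries labelled Ern2-/-, the means were 2200 ± 1587 under GF, 1925 ± 622 under COLONIZED and 1369 ± 328 under CONV.

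The 3 CONV-Ern2-/- libraries all had fewer Ern2 counts than the 3 CONV-WT libraries, which was true of 20.7% of genes in either direction. The log2 fold change there was -1.02 (95% interval -1.58 to -0.45, adjusted p = 0.0123 by DESeq2 and 0.154 by edgeR), just outside the threshold. The adjusted p ran from 0.00931 to 0.213 over 9 other settings, 1 of which passed the threshold, and was 8.99e-05, with a fold change of -1.18, without CONV-WT replicate 3. Under GF the fold change was -0.07 (-1.66 to 1.53) and under COLONIZED -0.37 (-0.79 to 0.05), with overlapping ranges in both. The difference between the CONV and GF effects was -0.95 (SE 0.77, adjusted p = 0.819) and was not called. Goblet cell markers summed to 95353 to 111048 normalized counts in CONV-Ern2-/- and, with an overlap at replicate 3, 110297 to 671361 in CONV-WT. Absorptive colonocyte sums, at 336662 to 513946 and 39241 to 309425, and epithelial sums, at 204242 to 219598 and 154020 to 176784, did not overlap, and the part of cell makeup in the Ern2 difference was not tested.

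The ratio of Ern2 to Ern1 normalized counts, not scaled to length, serves here to compare libraries with one another. For WT it was 2.94, 2.62 and 3.17 under GF, 5.16, 3.75 and 3.65 under COLONIZED and 4.87, 6.24 and 11.1 under CONV. In the Ern2-/- groups it was 3.20, 0.761 and 5.44 under GF, 3.67, 2.51 and 3.80 under COLONIZED and 1.57, 5.18 and 7.09 under CONV. Per kilobase of exon, the scale that allows the genes to be compared, the ratio was above 1 in all 18 libraries, from 2.10 to 30.6. The highest ratio, 11.1, belonged to CONV-WT replicate 3, whose Ern1 count was the lowest of all 18 libraries.

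Both COLONIZED-WT and CONV-WT had higher ratios than GF-WT in every library. The mean difference in log2 ratio was 0.51 for COLONIZED-WT and 1.26 for CONV-WT, each with an exact two-sided permutation p of 0.1, the smallest that 3 libraries against 3 allow. Over both genotypes, permuting within genotype, the difference was 0.49 (exact p = 0.31) for COLONIZED and 0.99 (exact p = 0.115) for CONV against GF. Between genotypes over the 3 states it was -0.49 in Ern2-/- against WT (exact p = 0.23). Of 12 such differences computed, none had a p under 0.05, which the 9 comparisons of 2 groups could not reach.

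**Figure D3:**
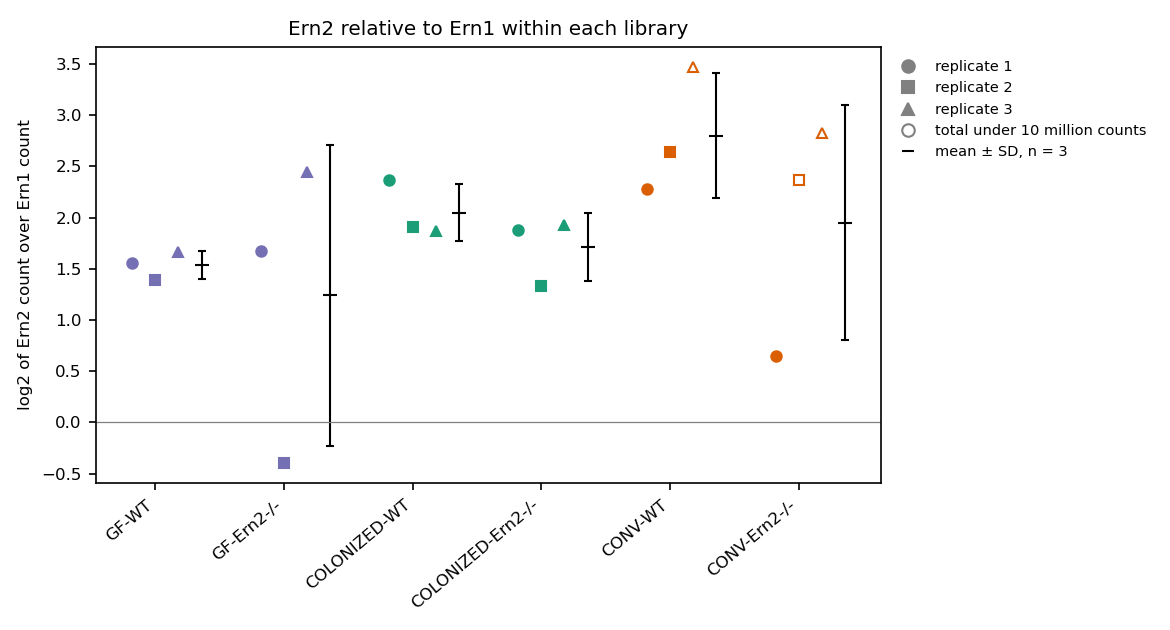
Log2 ratio of Ern2 to Ern1 normalized counts (vertical axis) in the 6 groups, with circles, squares and triangles for replicates 1, 2 and 3 and open symbols for shallow libraries. GF-Ern2-/- replicate 2 is the lowest library, with a ratio of 0.761, and CONV-WT replicate 3 is the highest, with 11.1. Black marks give the mean ± SD (n = 3).

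Xbp1, at chr11:5520659-5525893 on the plus strand, encodes the transcription factor made after IRE1 splicing, which drives genes of ER protein import, folding and traffic. WT libraries had 2949, 2676 and 3219 normalized counts of it under GF, 3845, 3821 and 4025 under COLONIZED and 4551, 4313 and 2115 under CONV. In the Ern2-/- groups they were 2690, 2713 and 2458 under GF, 4606, 3512 and 3238 under COLONIZED and 2666, 1880 and 2031 under CONV. In both genotypes the COLONIZED libraries were above all GF libraries, a separation seen in 50.3% of genes in WT and in 34.8% in Ern2-/-. CONV-WT was split, with replicates 1 and 2 above every GF-WT library and replicate 3 below them.

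Xbp1 rose in COLONIZED-WT over GF-WT, at a log2 fold change of 0.41 with an SE of 0.12 (adjusted p = 0.00568 by DESeq2 and 0.027 by edgeR). The fold change stayed between 0.38 and 0.44 over 8 other settings, of which 3 kept the call, with adjusted p from 0.00363 to 0.257, the last with sex as a covariate. Of the 6 fits that left out 1 library, only that without GF-WT replicate 3 kept the call, and the others had adjusted p from 0.0142 to 0.042. In COLONIZED-Ern2-/- against GF-Ern2-/- the fold change was 0.53 (SE 0.20, adjusted p = 0.0596), and the difference between the genotypes was 0.12 (95% interval -0.29 to 0.54, adjusted p = 0.998). Without the 3 libraries whose Ern2 count went against the label, in a fit that took the spread of the single GF-Ern2-/- library left from the other groups, it was 0.31 in Ern2-/- (adjusted p = 0.615).

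Xbp1 was lower in CONV-Ern2-/- than in COLONIZED-Ern2-/-, with no overlap (37.9% of genes) and a log2 fold change of -0.78 with an SE of 0.22 (adjusted p = 0.00546 by DESeq2 and 0.0483 by edgeR). Without COLONIZED-Ern2-/- replicate 1, the highest of its group and one of the libraries whose Ern2 count went against the label, it was -0.61 (adjusted p = 0.0886). Over all alternatives the fold change ran from -0.95 to -0.40 and the adjusted p from 2.88e-05 to 0.431, with the call kept in 4 of 11 settings and, of the fits that left out a library, in that without CONV-Ern2-/- replicate 1. The sum of the 15 goblet cell markers was 170958 to 316612 in COLONIZED-Ern2-/- and 95353 to 111048 in CONV-Ern2-/-, and the part of cell makeup in the Xbp1 difference was not tested.

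The Xbp1 log2 fold change in CONV-Ern2-/- against CONV-WT was -0.74 (SE 0.35, adjusted p = 0.246), not past the threshold. Without CONV-WT replicate 3 the fold change was -1.01 (adjusted p = 0.000148), in a fit of the 15 libraries that were not shallow, where a single CONV-Ern2-/- library was left and the spread came from the other groups, it was -0.73 (adjusted p = 0.00794), and over the other alternatives the adjusted p ran from 0.0285 to 0.824. In CONV-WT against GF-WT the Xbp1 fold change was 0.30 (SE 0.33, adjusted p = 0.581) with that library, 0.59 (adjusted p = 0.000607) without it, and 1.08 (adjusted p = 0.000514) with it and library total as a covariate. The fold change of Ern2-/- against WT was -0.16 (95% interval -0.49 to 0.16) under GF and -0.05 (-0.34 to 0.25) under COLONIZED, and over the 3 states it was -0.32 (SE 0.15, adjusted p = 0.226, background 1.63%). Without the 3 libraries against the label, Xbp1 was -0.12 under GF, where the spread of the 1 GF-Ern2-/- library left came from the other groups. It was -0.21 (adjusted p = 0.271) under COLONIZED and -0.41 (adjusted p = 0.0974) over the 3 states.

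Atf6 and Atf6b encode ATF6α and ATF6β, transcription factors held in the ER membrane until they are carried to the Golgi and cut. Atf6, at chr1:170704674-170867771 on the minus strand, had 1261, 1246 and 1588 normalized counts in the WT libraries under GF, 1187, 1191 and 1378 under COLONIZED and 1478, 1340 and 356 under CONV. In the Ern2-/- groups it stood at 1451, 1178 and 1142 under GF, 1389, 1515 and 1123 under COLONIZED and 1244, 704 and 618 under CONV. Atf6 ranges overlapped in all 9 comparisons of 2 groups, and CONV-WT replicate 3, at 356, was far below its group. In COLONIZED-WT against GF-WT the log2 fold change was -0.12 (95% interval -0.42 to 0.19) and in Ern2-/- 0.09 (-0.31 to 0.49).

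Atf6b, at chr17:34647146-34655074 on the plus strand, had 1017, 902 and 807 normalized counts in the WT libraries under GF, 1400, 1188 and 1232 under COLONIZED and 1315, 1075 and 442 under CONV. In the Ern2-/- groups it stood at 947, 865 and 924 under GF, 1226, 1043 and 1088 under COLONIZED and 994, 698 and 814 under CONV. The COLONIZED libraries were above the GF libraries in both genotypes, as for Xbp1 and as seen in 50.3% of genes in WT and 34.8% in Ern2-/-. Atf6b rose in COLONIZED-WT over GF-WT by 0.50 on the log2 scale with an SE of 0.15 (adjusted p = 0.00452 by DESeq2 and 0.0201 by edgeR), and in Ern2-/- it was 0.29 (SE 0.16, adjusted p = 0.26). The difference between genotypes was -0.20 (95% interval -0.56 to 0.17). Without the 3 libraries against the label, COLONIZED against GF in Ern2-/- was 0.30 for Atf6b and 0.16 for Atf6. In that fit 1 GF-Ern2-/- library was left and its spread came from the other groups.

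The Atf6b call was kept in 4 of 8 other settings and, of the 6 fits that left out a library, in that without GF-WT replicate 1, with fold changes of 0.39 to 0.58 and adjusted p from 0.000692 to 0.327. Neither gene passed the threshold in CONV-Ern2-/- against COLONIZED-Ern2-/-, at -0.64 (SE 0.28, adjusted p = 0.101) for Atf6 and -0.41 (SE 0.20, adjusted p = 0.138) for Atf6b. Leaving out CONV-Ern2-/- replicate 1 gave -1.02 (adjusted p = 6.47e-06) and -0.57 (adjusted p = 0.00807), while over the other alternatives the adjusted p ran from 0.0401 to 0.965 for Atf6 and from 0.0777 to 0.864 for Atf6b. The 2 libraries that then remained in CONV-Ern2-/- were the shallow ones. With all libraries in, CONV-Ern2-/- and COLONIZED-Ern2-/- did not overlap for Atf6b, as in 37.9% of genes.

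Eif2ak3, at chr6:70844515-70905245 on the plus strand, encodes PERK, the kinase of eIF2α in the ER membrane. In the WT libraries it had 840, 711 and 906 normalized counts under GF, 849, 795 and 985 under COLONIZED and 985, 860 and 111 under CONV. In the Ern2-/- groups it stood at 859, 618 and 543 under GF, 1186, 799 and 724 under COLONIZED and 583, 340 and 246 under CONV. CONV-WT replicate 3 was the lowest of the 18 libraries, and the 3 CONV-Ern2-/- libraries were below the 3 COLONIZED-Ern2-/- libraries, a separation seen in 37.9% of genes. An antisense gene, Gm43292, overlaps the span of Eif2ak3, introns included, by 2449 bases, and a gene on the same strand, Gm23346, by 136. The overlap with its exons was not computed, and the strand setting of the counting was not given in the sources used here.

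Eif2ak3 was lower in CONV-Ern2-/- than in COLONIZED-Ern2-/-, at a log2 fold change of -1.20 with an SE of 0.33 (adjusted p = 0.00426 by DESeq2 and 0.0545 by edgeR). Without COLONIZED-Ern2-/- replicate 1 it was -0.95 (adjusted p = 0.0897). In the fit of the 15 libraries that were not shallow, where the spread of the 1 CONV-Ern2-/- library left came from the other groups, it was -0.63. Over all alternatives the adjusted p ran from 2.63e-07 to 0.465, the last with library total as a covariate. The fold change in CONV-Ern2-/- against GF-Ern2-/- was -0.79 (SE 0.36, adjusted p = 0.183), and without CONV-Ern2-/- replicate 1 it was -1.21 (adjusted p = 0.00491), the only alternative of 16 that passed the threshold, with adjusted p of 0.0519 to 1 in the others. In WT, Eif2ak3 was not called in any comparison, with 0.11 (95% interval -0.21 to 0.42) for COLONIZED against GF. Ern2-/- against WT under CONV gave -0.74 (SE 0.69, adjusted p = 0.661), and -1.23 (adjusted p = 0.00784) without CONV-WT replicate 3.

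The members differed in how alike their levels were across the 18 libraries, which share depth and cell makeup. Atf6 and Eif2ak3 had a Pearson r of 0.96 between log2 normalized counts, and Ern1 and Atf6 one of 0.90. Ern2 was the least like the others, with r of 0.14 to 0.36. With the mean log2 level of the 15 goblet cell markers, r was 0.78 for Xbp1, 0.57 for Ern2, 0.50 for Eif2ak3, 0.49 for Atf6b, 0.36 for Atf6 and 0.34 for Ern1. Spearman's rho gave another order, with 0.773 for Xbp1, 0.756 for Eif2ak3, 0.635 for Ern2, 0.595 for Atf6b, 0.443 for Atf6 and 0.354 for Ern1. These correlations are descriptions over 18 libraries that include CONV-WT replicate 3.

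By the same measure over 10015 genes with a mean of at least 100, the genes most like Xbp1 were Txndc5, an ER disulfide isomerase, with r of 0.97, Ergic1, a cycling ER-Golgi protein, with 0.97, and Dnajc10, an ER reductase, with 0.94. Those most like Ern2 were 1810032O08Rik at 0.93, Hip1r, which binds clathrin, at 0.89 and Wnk4, a kinase of ion transport, at 0.89. Atf6 was most like Ficd, an enzyme that modifies the ER chaperone BiP, at 0.98, and Atf6b was most like Glt25d1 and Cnpy3, both at 0.96. Eif2ak3 was most like Slc30a7, a zinc transporter of the Golgi, and Galnt7, an enzyme of O-glycosylation, both at 0.97. Ern1 was most like Exph5, a Rab effector, at 0.96 and Cpd at 0.96.

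Long genes behaved differently between libraries. For each library, the median log2 deviation of the longest 20% of genes (7895 exon bases or more) minus that of the shortest 20% (2615 or fewer) was taken over 9596 genes, and it ran from -0.40 in GF-Ern2-/- replicate 2 to 0.40 in COLONIZED-Ern2-/- replicate 2. It was -0.29 in CONV-WT replicate 3, and -0.10 and -0.37 in CONV-Ern2-/- replicates 2 and 3. Its r with the log2 level was 0.66 for Ern1, 0.62 for Atf6 and 0.55 for Eif2ak3, which have 8173, 9231 and 6026 exon bases, and 0.30 to 0.31 for Ern2, Xbp1 and Atf6b, which have 2964, 3248 and 2757.

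Values of the long members in the shallow CONV libraries are set here beside the median of the 200 genes nearest in length, whose spread was not computed. In CONV-WT replicate 3, Eif2ak3 deviated by -2.51 on the log2 scale against a median of -0.04, Atf6 by -1.66 against -0.21 and Ern1 by -1.51 against -0.15. In CONV-Ern2-/- replicate 3, Ern1 deviated by -1.35 against -0.12, Eif2ak3 by -1.38 against -0.06 and Atf6 by -0.87 against -0.23. In CONV-Ern2-/- replicate 2, Eif2ak3 deviated by -0.91 against -0.05, Ern1 by -0.77 against -0.04 and Atf6 by -0.68 against -0.05. Among the shorter members in CONV-WT replicate 3, Atf6b deviated by -1.13 against 0.10, Xbp1 by -0.54 against 0.05 and Ern2 by 0.08 against 0.08. In CONV-WT against GF-WT, none of Ern1, Atf6 and Eif2ak3 was called before or after the length trend was removed. The DESeq2 adjusted p-values were 0.165, 0.663 and 0.782 before and 0.199, 0.766 and 0.834 after, in this order. The missing calls therefore cannot show what part length had.

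**Figure D4:**
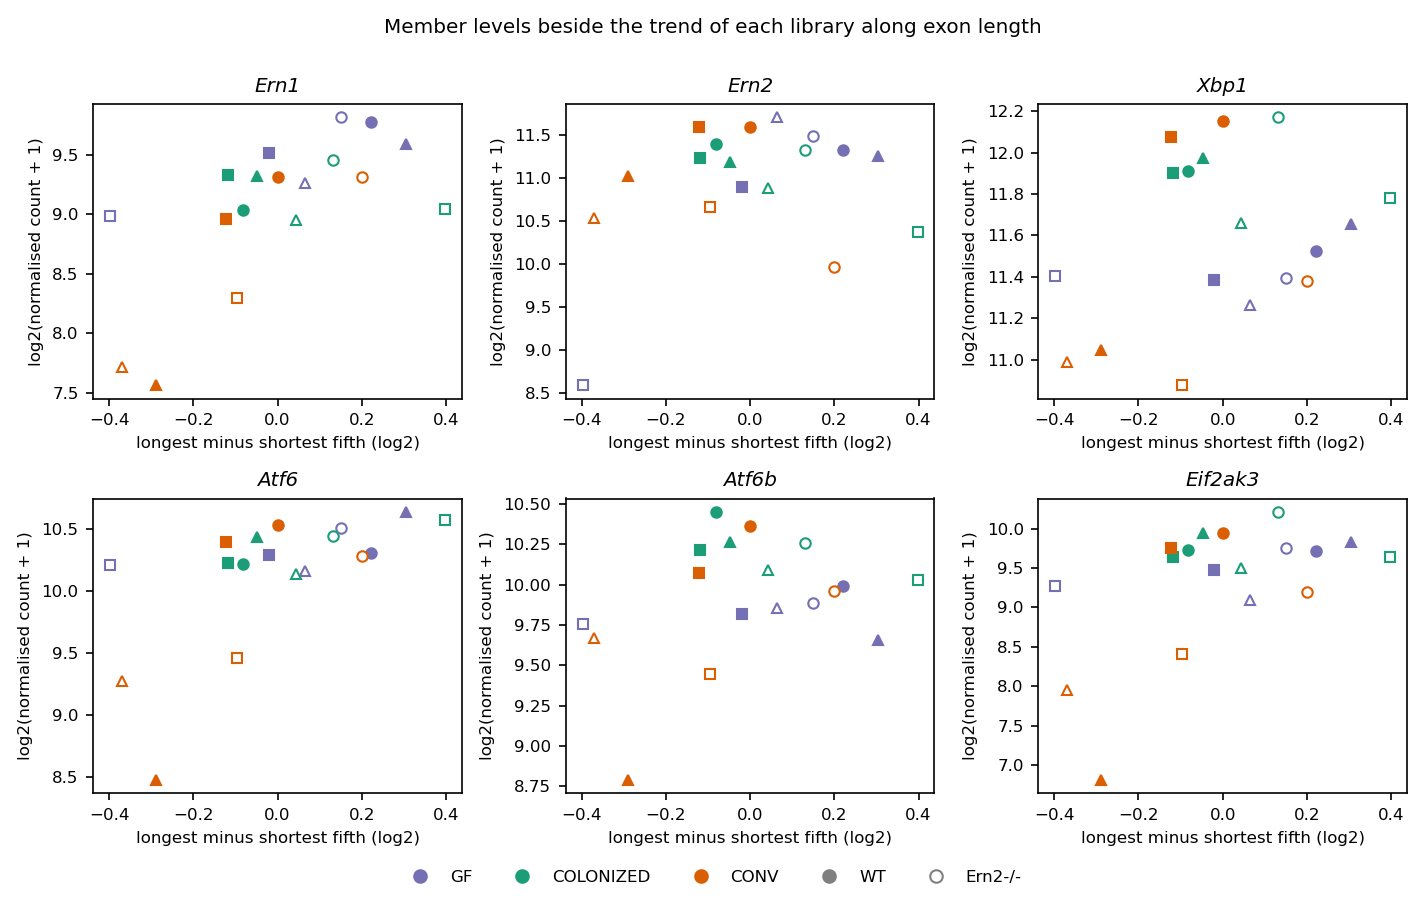
Log2(normalized count + 1) of each gene (vertical axes) against the length trend of the library (horizontal axes, longest minus shortest 20% of genes, log2), with filled symbols for WT, open symbols for Ern2-/-, colors for the microbial state and circles, squares and triangles for replicates 1, 2 and 3. The r of Ern1 is 0.66 and that of Atf6 0.62, while Ern2, Xbp1 and Atf6b lie between 0.30 and 0.31.

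The other genes of the pathway were read from 7 lists of 5 to 27 genes. XBP1 targets and ATF6 targets share 4 genes, Creld2, Dnajb11, Hyou1 and Sel1l, and the list of IRE1 regulators shares 4 genes with each of them, Hspa5 and Pdia6 among those shared with ATF6 targets, so the lists are not independent of one another.

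In COLONIZED-WT against GF-WT, some but not all targets of XBP1 and ATF6 were called higher. Of 26 tested XBP1 targets 17 rose and none fell, and of 12 ATF6 targets 9 rose and none fell, where 9.35% of all genes were higher and 8.97% lower. The median log2 fold change was 0.56 for XBP1 targets and 0.95 for ATF6 targets, against -0.01 for all genes. The XBP1 targets with the highest fold changes were Creld2, an ER stress-induced ER protein, at 1.69 (SE 0.21), Sdf2l1, a chaperone cofactor, at 1.56 (SE 0.20) and Kdelr3, which returns escaped proteins to the ER, at 1.41 (SE 0.17). Creld2 went from 481, 387 and 311 normalized counts in GF-WT to 1363, 978 and 1439 in COLONIZED-WT, without overlap. Among ATF6 targets, Manf, a secreted ER stress protein, rose by 1.42 (SE 0.16) and Hspa5, the chaperone BiP that restrains all 3 sensors, by 1.35 (SE 0.18).

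On the list of IRE1 regulators, 6 of 17 rose and none fell, among them Agr2, a mucin-folding isomerase known to bind IRE1β, at 1.54 (SE 0.17) and Pdia6 at 1.15 (SE 0.20). On the list of ATF6 processing factors, 2 of 12 rose, Pdia5 at 0.70 and Sar1a at 0.35. On the PERK list 4 of 19 were higher and 2 lower, with a median of -0.10, and leaving out 1 library at a time gave 2 to 5 higher and 0 to 3 lower. Asns, an ATF4 target of asparagine synthesis, rose by 0.83 (SE 0.16), while Atf3 fell by 1.60 and Nck1, an adaptor, fell by 0.60. Asns kept its call in 6 of the 6 fits that left out 1 library, Nck1 in 5 and Atf3 in 1, and among the other settings the fold change of Atf3 was as small as -0.41, with a DESeq2 or edgeR adjusted p of up to 0.373. Of the membrane factors related to ATF6, Creb3l1 rose by 0.71 (SE 0.15), alone of 5. Of 6 tested substrates of IRE1 mRNA decay, Muc2 rose by 1.55 (SE 0.13) and Mttp, the lipid transfer protein, fell by 1.02. The Muc2 call was kept in 6 of the 6 fits that left out 1 library and the Mttp call in 1.

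Goblet cell marker sums were 233442 to 365108 in GF-WT and 348181 to 467383 in COLONIZED-WT, and several listed genes, Muc2 and Agr2 among them, are themselves goblet cell genes. Enteroendocrine and tuft cell markers differed without overlap, at 2397 to 4464 in GF-WT and 5659 to 5894 in COLONIZED-WT. Stromal marker sums were also without overlap, at 415 to 479 and 266 to 340, those of pancreatic acinar genes at 3538 to 6855 and 2753 to 3437, and those of plasma and B cells at 11.1 to 16.8 and 3.18 to 7.84. The part of these cell types in the counts above was not tested. By edgeR, 11 XBP1 targets and 8 ATF6 targets were higher, in 1 fit of all 18 libraries 3 and 3, and with sex as a covariate 5 and 4.

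In COLONIZED-Ern2-/- against GF-Ern2-/-, 6 of 26 XBP1 targets and 7 of 12 ATF6 targets rose and none fell, where 3.6% of all genes were higher and 3.57% lower. Their medians, 0.52 and 0.95, were close to those in WT. With 1 library left out, 3 to 9 XBP1 targets and 5 to 9 ATF6 targets were higher, where calls over all genes were 449 to 1340. Creld2 rose by 1.95 (SE 0.22), Hspa5 by 1.61 (SE 0.27) and Hyou1, an ER chaperone, by 1.44 (SE 0.23). Creld2 stood at 550, 624 and 551 in GF-Ern2-/- and at 2674, 2266 and 1740 in COLONIZED-Ern2-/-. On the list of IRE1 regulators 5 of 17 rose, among them Agr2 by 1.54 (SE 0.29) and Pdia6 by 1.01 (SE 0.24). Leaving out 1 library gave 2 to 5 of them. Of the 6 substrates of IRE1 mRNA decay, Muc2 rose by 1.75 (SE 0.44) and Pmp22, a membrane protein, fell by 1.64, with their calls kept in 4 and 6 of the 6 fits that left out 1 library. On the PERK list, Chac1, which degrades glutathione, rose by 4.61 (SE 0.49), Trib3, a pseudokinase, by 2.46 (SE 0.63) and Asns by 1.09 (SE 0.26), while the heme-regulated kinase Eif2ak1 fell by 0.63. These were 4 higher and 1 lower of 19, with 1 to 6 higher and 0 to 1 lower when 1 library was left out, and of the fits that left out 1 library Chac1 kept its call in 6 of 6, Asns in 3, and Trib3 and Eif2ak1 in 2. Enteroendocrine and tuft cell marker sums were 1984 to 2794 in GF-Ern2-/- and 5636 to 10773 in COLONIZED-Ern2-/-. Stromal sums, at 437 to 663 and 253 to 347, and pancreatic acinar sums, at 4403 to 7099 and 1465 to 3738, did not overlap either, and the part of these cell types was not tested.

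No gene of any of the 7 lists passed the test of a different COLONIZED response between genotypes, by DESeq2 or edgeR, and 1 XBP1 target and 1 ATF6 target had an unadjusted p under 0.05 by either tool, where 5.76% of all genes did in DESeq2 and 7.26% in edgeR. edgeR called 1 XBP1 target and 1 ATF6 target higher in COLONIZED-Ern2-/-. In the fit without the 3 libraries whose Ern2 count went against the label, the medians were 0.39 for XBP1 targets and 0.66 for ATF6 targets. With 1 library left in GF-Ern2-/-, whose spread came from the other groups, no calls are read from that fit.

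**Figure D5:**
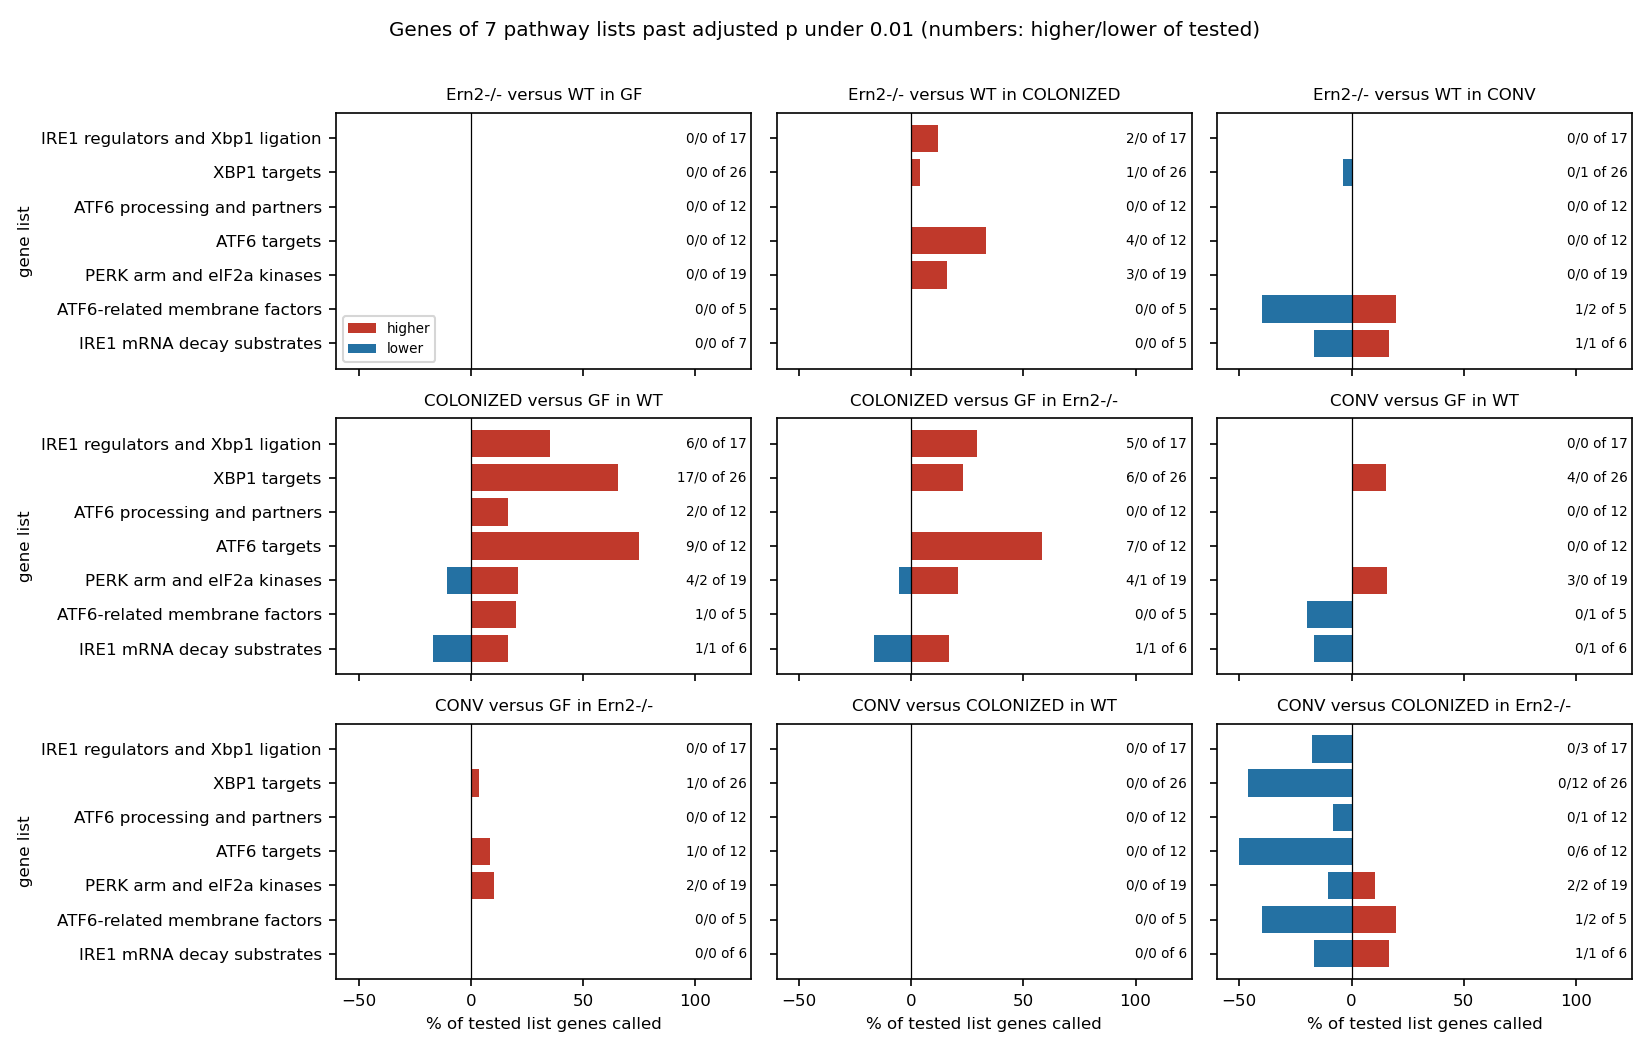
Share of tested genes of each list (horizontal bars, percent, lower drawn to the left) that were called higher (red) or lower (blue) at an adjusted p under 0.01, by comparison, with the counts beside the bars. XBP1 targets show 17 of 26 higher in COLONIZED against GF in WT, 6 of 26 in Ern2-/-, and 12 of 26 lower in CONV against COLONIZED in Ern2-/-.

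Between COLONIZED-Ern2-/- and COLONIZED-WT, genes of the ATF6 and PERK lists were called while none of the 6 members was. Of 12 ATF6 targets 4 were higher in COLONIZED-Ern2-/-, where 0.518% of all genes were higher and 0.853% lower, with a median of 0.50, and 1 of 26 XBP1 targets was higher, Creld2, which is on both lists. Under GF, where no ATF6 target was called, their median in Ern2-/- against WT was 0.39, against 0.02 over all genes. Pdia4, an ER isomerase, rose by 0.76 (SE 0.17), Hspa5 by 0.80 (SE 0.19) and Creld2 by 0.82 (SE 0.20), and on the IRE1 regulator list 2 of 17 rose, Hspa5 and the chaperone Hsp90b1 at 0.65. On the PERK list 3 of 19 rose, Trib3 by 4.65 (SE 0.61), Chac1 by 2.81 (SE 0.35) and Atf5, a transcription factor made when eIF2α is phosphorylated, by 0.69 (SE 0.15). Trib3 stood at 139, 41 and 63 normalized counts in COLONIZED-Ern2-/- and at 4, 1 and 4 in COLONIZED-WT, and Chac1 at 402, 205 and 192 against 51, 22 and 41.

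The ranges of the 2 groups did not overlap for either gene. COLONIZED-Ern2-/- replicate 1, whose Ern2 count went against the label, was the highest library for both. Without it 1 ATF6 target was called higher, where DESeq2 called 656 of 12479 genes against 164 of 11960 in the full groups. Without COLONIZED-WT replicates 1, 2 and 3, left out in turn, 1, 0 and 2 ATF6 targets were, and without COLONIZED-Ern2-/- replicates 2 and 3, 0 and 5 were. Of the 6 fits that left out a library, 3 kept the Pdia4 and the Atf5 call, 2 kept those of Hspa5 and Creld2 and 1 that of Hsp90b1. No ATF6 target was called in 1 fit of all 18 libraries or by edgeR, where 8 had an unadjusted p under 0.05 (21.9% of all genes did). The Trib3 call was kept in 9 of 10 other settings and the Chac1 call in 8, and both in all 6 fits that left out a library, with fold changes of 4.01 to 5.09 for Trib3 and 2.38 to 3.18 for Chac1. Both calls were lost with edgeR, which called no gene of the PERK list, where 10 had an unadjusted p under 0.05. Goblet cell marker sums differed without overlap, at 170958 to 316612 in COLONIZED-Ern2-/- and 348181 to 467383 in COLONIZED-WT, as did other immune marker sums, at 1098 to 1683 and 1857 to 2110, and their part in these calls was not tested.

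In Ern2-/- against WT under CONV, where no member was called, 1 of 26 XBP1 targets was lower and none higher (background 1.96% lower and 1.08% higher), with a median of -0.23. That gene was Sec24d, a coat protein of ER exit vesicles, which fell by 1.23 (SE 0.26), from 1993, 1721 and 1408 in CONV-WT to 825, 784 and 568 in CONV-Ern2-/-. No ATF6 target was called by DESeq2 or edgeR, and 0 had an unadjusted p under 0.05 by either. Of the 5 membrane factors related to ATF6, Creb3l1 fell by 1.52 (SE 0.42), Creb3l4 fell by 1.92 (SE 0.45) and Creb3l3 rose by 2.92 (SE 0.65). Of the mRNA decay substrates, Muc2 fell by 2.61 (SE 0.66) and Pmp22 rose by 1.84 (SE 0.33). edgeR called none on these 2 lists, with 3 and 2 genes at an unadjusted p under 0.05. Of the 6 fits that left out a library, 6 kept the Pmp22 call, 3 that of Sec24d, 2 those of Creb3l3, Creb3l4 and Muc2 and 1 that of Creb3l1.

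The goblet cell regulator Spdef fell by 2.09 (SE 0.36) in the same comparison, and the sum of 9 absorptive colonocyte markers was 336662 to 513946 in CONV-Ern2-/- and 39241 to 309425 in CONV-WT. Epithelial marker sums did not overlap either. The part of cell makeup in these counts was not tested. Without CONV-WT replicate 3, 10 XBP1 targets and 3 ATF6 targets were lower, while calls over all genes went from 383 of 12625 to 1669 of 13464, and edgeR called none on either list in the full groups, where 3 XBP1 targets and 0 ATF6 targets had an unadjusted p under 0.05.

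In CONV-Ern2-/- against COLONIZED-Ern2-/-, 12 of 26 XBP1 targets and 6 of 12 ATF6 targets fell and none rose, where 3.73% of all genes were lower and 4.86% higher, with medians of -0.66 and -0.86. Kdelr3 fell by 1.31 (SE 0.29), Ckap4, a protein of ER sheets, fell by 1.14 (SE 0.25), and Hspa5 and Hyou1 each fell by 1.03. On the PERK list 2 of 19 were lower and 2 higher. Chac1 fell by 2.14 (SE 0.41) and Dnajc3 fell by 0.85, while Atf3 rose by 1.41 (SE 0.41) and Sesn2 by 0.97 (SE 0.24), and of these Chac1 kept its call in 6 of the 6 fits that left out 1 library and the others in 2 each. Of the membrane factors related to ATF6, Creb3l1 fell by 1.39 and Creb3l4 fell by 1.25, while Creb3l3 rose by 2.21 (SE 0.37). By edgeR no target on either list was called, though 15 XBP1 and 10 ATF6 targets had an unadjusted p under 0.05 (31.4% of all genes did). The fit of the 15 libraries that were not shallow kept 1 CONV-Ern2-/- library, so no list count is read from it. Without COLONIZED-Ern2-/- replicate 1, 4 XBP1 targets and no ATF6 target were lower, while without CONV-Ern2-/- replicate 1, 17 XBP1 targets were lower and 1 higher, and 9 ATF6 targets were lower. Calls over all genes, 1125 of 13098 in the full groups, were 414 of 12570 without the first library and 2499 of 13604 without the second. Goblet cell marker sums were 170958 to 316612 in COLONIZED-Ern2-/- and 95353 to 111048 in CONV-Ern2-/-. Absorptive colonocyte marker sums were 120075 to 219413 and 336662 to 513946, also without overlap. Sums of epithelial markers, at 177031 to 198325 and 204242 to 219598, did not overlap either. The same held for other immune markers, at 1098 to 1683 and 569 to 965, and for plasma and B cell markers, at 7.02 to 9.97 and 11.0 to 22.2. The part of these cell types was not tested.

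In CONV-WT against GF-WT, 4 of 26 XBP1 targets and none of 12 ATF6 targets were higher (background 5.68% higher and 5.28% lower), with medians of 0.33 and 0.64. Serp1, which guards newly made membrane proteins, rose by 1.24 (SE 0.15), Srp19, a part of the signal recognition particle, by 1.14 (SE 0.20) and Sec61b, a part of the ER translocon, by 1.01 (SE 0.25). On the PERK list, 3 of 19 rose, Asns by 1.11 (SE 0.22), Eif2s1, which encodes eIF2α, by 0.67 and Atf4 by 0.59. Asns kept its call in 6 of the 6 fits that left out 1 library, and Eif2s1 and Atf4 in 1 each, where the list had 1 to 5 genes higher, and edgeR called none of the list. Creb3l3, of the 5 membrane factors related to ATF6, fell by 3.18 (SE 0.95), and Pmp22, of the 6 tested mRNA decay substrates, fell by 1.59 (SE 0.46). Of the same 6 fits, 2 kept the Creb3l3 call and 1 the Pmp22 call, and edgeR called neither. Without CONV-WT replicate 3, 20 XBP1 targets and 9 ATF6 targets were higher, and calls over all genes went from 1521 of 13872 to 2868 of 13775. With 1 library left out of COLONIZED-WT against GF-WT, 14 to 16 XBP1 targets and 8 to 9 ATF6 targets were higher. In the full groups edgeR called none on either list, with 6 XBP1 targets and 1 ATF6 target at an unadjusted p under 0.05, where 28.7% of all genes were, and DESeq2 had 3 ATF6 targets at that level, where 24.9% of all genes were. Creld2 was 1519 and 1142 in CONV-WT replicates 1 and 2 and 301 in replicate 3, against 311 to 481 in GF-WT.

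In CONV-Ern2-/- against GF-Ern2-/-, 1 XBP1 target rose, Creld2 by 1.14 (SE 0.23), which was also the only ATF6 target called, where 1.57% of all genes were higher and 2.77% lower. Chac1 rose by 2.47 (SE 0.64) and Sesn2 by 1.01 (SE 0.28) on the PERK list. Chac1 kept its call in 1 of the 6 fits that left out 1 library and Sesn2 in 2, with 0 to 2 genes of the list called. Goblet cell marker sums, at 117762 to 253321 and 95353 to 111048, enteroendocrine and tuft cell sums, at 1984 to 2794 and 4590 to 6498, pancreatic acinar sums, at 4403 to 7099 and 854 to 1631, and plasma and B cell sums, at 6.25 to 9.02 and 11.0 to 22.2, did not overlap, and their part was not tested. In CONV-WT against COLONIZED-WT no gene of the 7 lists was called by DESeq2 or edgeR, where 0.0446% of all genes were higher and 0.0743% lower, and the same held for Ern2-/- against WT under GF, where 0.0117% were higher and 0.0233% lower. In 1 fit of the 15 libraries not against the label, DESeq2 called 557 of 12878 genes in the latter comparison, against 4 of 12649 in 1 fit of all 18. Those calls rest on GF-Ern2-/- replicate 2 alone, whose spread was taken from the other groups and whose absorptive colonocyte markers summed to 493680, against 54876 and 80843 in replicates 1 and 3, and no list is read from them. At an unadjusted p under 0.05 in DESeq2 CONV-WT against COLONIZED-WT and Ern2-/- against WT under GF had 2 XBP1 targets each, and 0 and 5 ATF6 targets, where 7.26% and 1.48% of all genes were at that level. In edgeR they had 2 XBP1 targets each, and 0 and 2 ATF6 targets, where 7.11% and 1.54% of all genes were. With all libraries in, those 2 comparisons had the fewest DESeq2 calls of the 9 over all genes.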

How the data were processed

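RNA from colon crypt epithelial cells was sequenced from stranded mRNA libraries, 18 in all, 3 in each of 6 groups taken from the labels. The authors deposited 1 table of raw counts per gene, made with STAR in the VIPER pipeline against mm10 per the submitters' processing notes. The annotation and the strand setting were not given in the sources used here. The table had 0 columns of no sample.

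Counts were tested with DESeq2 1.42.0 in R 4.3.3 (Wald test, no shrinkage, Benjamini-Hochberg adjustment over all genes tested, threshold 0.01), each comparison of 2 groups fitted on its own libraries, with interaction and additive models for the others. edgeR 4.0.16 was the alternative, and Python 3.11.15 with SciPy 1.17.1 gave the exact permutation tests. The code was tested on simulated data. Totals of 5865619 to 23154481 counts set the precision, and the counts have no molecular identifiers. Lengths (the union of exons) and positions came from GRCm38 gene models. At most 1.94% of 12520 genes had equal counts in any 2 libraries.

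The 6 genes, the pathway lists and the cell type markers were chosen with earlier results of these data known. Named were the 6 genes, for each the 5 genes with the highest Pearson r of log2(normalized count + 1) among genes with a mean of at least 100 (the most alike are given), and up to 3 called genes per list, direction and comparison with the largest fold change. Muc2, Spdef and Agr2 were named as goblet cell genes. Alternatives were TMM scaling, a filter of at least 10 counts in 3 libraries, a replicate block, sex or library total as a covariate, a single fit of all libraries and fits without given libraries. The removal of the length trend and the fits of 15 libraries were chosen after the data were seen.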

Additional observations from a re-analysis of the deposited data

How the results depend on the processing

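The count of the 6 genes called in COLONIZED-WT against GF-WT went from 2 to 0 with edgeR, with sex or library total as a covariate and in 1 fit of all 18 libraries, and to 1 with the length trend removed. Calls over all genes there went from 2498 to 630, 231, 1309, 1261 and 2429 in turn. In CONV-Ern2-/- against COLONIZED-Ern2-/- it went from 2 to 0 with edgeR, with sex or library total as a covariate and in 1 fit of all 18 libraries. Calls over all genes there went from 1125 to 35, 623, 261 and 432 in turn. The count of the 6 genes was also 0 in the fit of the 15 libraries not against the label and without COLONIZED-Ern2-/- replicate 1. Calls over all genes were 149 and 414 in these 2 fits. The fit of the 15 libraries of at least 10000000 counts kept 1 CONV-Ern2-/- library, so no count is read from it. In Ern2-/- against WT under CONV the count of the 6 genes went from 0 to 1 with the length trend removed, where calls over all genes went from 383 of 12625 to 411 of 12513. In CONV-WT against GF-WT it went from 0 to 3 with library total as a covariate and to 1 in the fit of the 15 libraries of at least 10000000 counts. Calls over all genes went there from 1521 to 1048 and 2680. In CONV-WT against COLONIZED-WT it went from 0 to 3 with library total as a covariate, where calls over all genes went from 16 of 13458 to 748 of 12176. For COLONIZED against GF over both genotypes it went from 0 to 1 with library total as a covariate and to 2 without the libraries under 10000000 counts, where calls over all genes went from 2643 to 3038 and 3264. For CONV against GF over both genotypes it went from 0 to 1 with TMM scaling, with the filter of 10 counts, with a replicate block, with sex as a covariate and with the length trend removed. With library total as a covariate the fold change of Ern1 in that comparison turned to 0.029. That of Col6a1, on the list of mRNA decay substrates, turned from 3.10 (SE 0.92) to -0.42. Col6a1 had few counts, at 0 to 5.21 normalized counts in GF libraries and 0.943 to 31.0 in CONV libraries. With that covariate calls over all genes went from 2930 to 980, and under the other 5 settings to between 2667 and 3018. The causes of these shifts were not tested.

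Leaving out 1 library at a time gave 0 to 1 genes called in COLONIZED-WT against GF-WT, in CONV-WT against GF-WT, in Ern2-/- against WT under COLONIZED and in the 2 pooled microbial comparisons, 0 to 3 in CONV against GF in Ern2-/- and in Ern2-/- against WT under CONV, 0 to 5 in CONV-Ern2-/- against COLONIZED-Ern2-/-, and 0 in the others. Calls over all genes in these fits were 1276 to 2672, 592 to 2868 and 81 to 656 in the first 3 of these comparisons, 2006 to 2893 for COLONIZED and 2366 to 3294 for CONV against GF over both genotypes, 251 to 948 in CONV against GF in Ern2-/-, 126 to 1669 in Ern2-/- against WT under CONV and 414 to 2499 in CONV-Ern2-/- against COLONIZED-Ern2-/-. The log2 ratio of Ern2 to Ern1 changed direction without GF-Ern2-/- replicate 2, with ranges of -0.90 to 0.52 for Ern2-/- against WT under GF, -0.11 to 1.36 for CONV against GF in Ern2-/- and -0.35 to 1.07 for COLONIZED against GF in Ern2-/-, and without CONV-Ern2-/- replicate 3 in CONV against COLONIZED in Ern2-/-, at -0.20 to 0.89. The replicate block moved no other count of the 6 genes. Replicate numbers were not taken as pairs in the main fits. Of 45 same-numbered pairs, 21 had a correlation of deviations over 0.1, with a median of 0.09 and a range of -0.49 to 0.63. Pairs with different numbers were not set beside them, so these values cannot decide whether the numbers pair the libraries. In Ern2-/- against WT under CONV, calls over all genes went from 383 to 1669, 331 and 177 without CONV-WT replicate 3, CONV-Ern2-/- replicate 2 and CONV-Ern2-/- replicate 3 in turn, the libraries under 10000000 counts.

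Counts of pathway targets moved as well. XBP1 targets higher in COLONIZED-Ern2-/- than in GF-Ern2-/- numbered 6, against 10 with a replicate block or with sex as a covariate, 9 with library total, 3 in 1 fit of all 18 libraries and 1 with edgeR, where calls over all genes, 1000 of 13943 at first, were 959, 950, 976, 1166 and 27 in turn. In CONV-WT against GF-WT, 4 became 18 with library total and in the fit of the 15 libraries of at least 10000000 counts, and 2 with sex, while ATF6 targets went from 0 to 8 and 9 under the first pair. Calls over all genes there went from 1521 to 1048, 2680 and 922. That fit kept 1 CONV-Ern2-/- library, so no count of XBP1 targets in Ern2-/- against WT under CONV is read from it. XBP1 targets lower in CONV-Ern2-/- than in COLONIZED-Ern2-/- went from 12 to 0 with library total and to 1 in 1 fit of all 18 libraries. Calls over all genes there went from 1125 to 261 and 432. XBP1 targets higher in Ern2-/- than in WT under COLONIZED went from 1 to 4 with sex and to 3 with the length trend removed, where calls over all genes went from 164 to 154 under the latter.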
